A study of Mus musculus with 2 samples.

Results

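Lepr encodes the receptor for leptin, a hormone of fat tissue, and Leprot encodes a small membrane protein that bears the receptor gene's name without being part of the receptor. Both were found in the count tables by their symbols, as 2 of 31053 features (Lepr ENSMUSG00000057722, Leprot ENSMUSG00000035212). Single cells stained for Cd11b, found on myeloid cells, and Cd45, found on cells of blood origin, had been sorted from the hypothalamic and thalamic region of outbred CD1 mouse embryos at E15.5, none carrying a transgene, and sequenced in droplets (10x Genomics). The control library pooled tissue of 10 embryos of 1 untreated dam, and the stressed library tissue of 5 embryos whose dam, 1 animal, spent 30 min at 4 °C on each of 5 days from E11.5 to E15.5. Each condition was thus 1 litter in 1 library. No test between conditions was possible, and litter, library and treatment cannot be told apart. The pair was chosen by the higher Lepr level of the stressed library in an earlier reading of these files, so that difference is a description here, with no test. Every interval is a 95% interval of counting error alone.

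Leptin binds Lepr at the cell surface, and the long form of the receptor carries an intracellular tail that works through the kinase Jak2 and the transcription factor Stat3, with Socs3 as a feedback inhibitor. In the hypothalamus of adult mice this pathway acts in neurons that control food intake. Leprot, also called endospanin 1, is a protein of the endosomal system that lowers the amount of leptin receptor at the cell surface, and Leprotl1 is its close relative. In human the 2 genes share a promoter and their first exons, and Leprot is often described as overlapping Lepr.

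That arrangement was not found in the mouse annotation (GENCODE M21, GRCm38), although the gene pair had been taken up as overlapping. Leprot lies on the plus strand of chromosome 4 from 101647718 to 101659364, and Lepr on the same strand from 101717404 to 101815352. The 2 genes are 58.0 kb apart, with 0 annotated genes between them and 0 shared exon bases, and their starts lie 69.7 kb apart. No annotated exon therefore belongs to both genes, and reads within annotated exons of one are not within those of the other. The windows from 250 bases before to 50 bases after the start (RefSeq, GRCm38.p6, plus strand) are shown because they differ in a short motif. Leprot is given at chr4:101647533-101647832 and Lepr, of whose 2 listed starts the first is shown, at chr4:101717157-101717456. Capitals mark GGGCGG, the core of the GC box.
Leprot: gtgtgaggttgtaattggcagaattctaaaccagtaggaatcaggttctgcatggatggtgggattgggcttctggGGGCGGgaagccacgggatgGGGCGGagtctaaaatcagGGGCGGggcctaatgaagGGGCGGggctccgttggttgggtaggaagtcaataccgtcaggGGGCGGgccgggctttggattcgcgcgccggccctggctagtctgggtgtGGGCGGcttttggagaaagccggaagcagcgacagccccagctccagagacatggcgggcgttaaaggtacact
Lepr: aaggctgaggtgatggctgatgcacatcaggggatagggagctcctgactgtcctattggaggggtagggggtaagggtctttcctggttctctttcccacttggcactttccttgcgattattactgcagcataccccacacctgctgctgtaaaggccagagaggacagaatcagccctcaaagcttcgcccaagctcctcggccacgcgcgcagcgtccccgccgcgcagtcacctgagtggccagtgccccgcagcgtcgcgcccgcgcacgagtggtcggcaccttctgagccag
The Leprot window held 6 GGGCGG matches, counted on both strands, and the printed Lepr window 0, with 1 in the window of the other listed Lepr start. Of 32851 promoter windows of this length, 35.7% held the motif. GC content was 60.7% in the Leprot window and 61.3% in the printed Lepr window, against a median of 52.7%. CCAAT occurred 2 times and 1 time, and TATAAA and the STAT-type motif TTCNNNGAA occurred in neither, with shares of 37.4%, 13.6% and 8.3% of all windows. None of the matches in these windows overlapped another. They are a description of the letters and not of sites in use.

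Lepr has 7 annotated transcripts. Lepr-201 codes for 1162 amino acids, the length of the long signalling form, and ends at 101815352. Lepr-203 codes for 894 amino acids and ends at 101813667, and Lepr-202 codes for 892 amino acids and ends at 101792258. The counts are per gene, so the forms were not told apart here, and the level of the long form is unknown. Leprot has 2 annotated transcripts, which code for 131 and 108 amino acids and end at the same base.

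The libraries held 1156 and 1467 barcodes with 2833015 and 6582188 UMIs (unique molecules counted), with medians of 1947.5 and 3767 UMIs per barcode. A filter that asked for 500 genes or more and for no more than 10% mitochondrial UMIs left 1068 control and 1407 stressed cells. Each was placed in a class by the share of 9 marker lists detected in it. Microglia-like cells, the brain's resident macrophages, were 64.8% and 82.8% of the kept cells (692 and 1165), and neural-like cells 19.8% and 11% (211 and 155). Every one of the 12 microglial markers was found in the microglia-like sums of both libraries, where the list stood at 7803 and 8115 CPM (the UMIs of a gene divided by those of the class, times 1000000). In all, 13 barcode sequences occurred in both libraries, and only 1 barcode per library among them had Lepr (3 and 4 UMIs). The control pool held both sexes, with 136 microglia-like cells that had Y-linked transcripts and no Xist, whereas no stressed microglia-like cell did. In the control library Lepr stood at 122 CPM in the 229 cells with Xist alone and 187 CPM in the 136 with Y-linked transcripts alone, with intervals of 96.4 to 153 and 148 to 233 CPM. These levels rested on 13 and 11 cells with Lepr, 2 and 3 of which held 10 or more Lepr UMIs. Such intervals are too narrow for UMIs that come in clumps within cells. The shares of cells with Lepr overlapped, at 5.68% (3.06 to 9.51%) and 8.09% (4.11 to 14.0%), so no difference between the sexes is drawn from them. The log2 ratio of Lepr over cells with Xist alone was 1.5, against 1.38 over all microglia-like cells.

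Across the cell classes, Lepr was found in the myeloid classes of the stressed library and in 2 of the 3 in the control library, and was scarce in neural-like cells. In microglia-like cells the control library held 229 Lepr UMIs and the stressed library 1790. The first sum gave 128 CPM, with an exact Poisson interval of 112 to 146, and the second gave 333 CPM, with an interval of 318 to 349. Stressed over control, the log2 ratio was 1.38 (1.18 to 1.59), or 2.61-fold. It was 2.33 over non-cycling cells and 1.98 under a stricter cell filter of 1000 genes and 5% mitochondrial UMIs. As the mean of per-cell CPM it was 1.08, and with cells thinned to 1100 UMIs each it was 1.09. The intervals given are too narrow for Lepr, whose UMIs came in clumps within cells. Among the 2671 genes that reached 50 CPM in either library, 11 (0.412%) stood 2 times or more higher in the stressed library and 13 (0.487%) 2 times or more lower. Lepr had the 4th highest ratio of the 2671 and was chosen for it. Leprot had 142 control UMIs, or 79.3 CPM (66.8 to 93.4), and 472 stressed UMIs, or 87.9 CPM (80.1 to 96.2). Its log2 ratio was 0.15 (−0.13 to 0.43). That ratio ranked 506th and was not past 2 times. The median log2 ratio of all 2671 genes was −0.06.

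Border-associated macrophage-like cells, the macrophages of the brain's surfaces and vessels, gave 27 Lepr UMIs in 81 control cells (87.0 CPM, 57.4 to 127) and 46 UMIs in 30 stressed cells (272 CPM, 200 to 364). Single cells decided these sums. One control cell held 22 of the 27 UMIs and 1 stressed cell held 42 of the 46. Monocyte or granulocyte-like cells gave 0 UMIs in 14 control cells, which allows up to 108 CPM (3 counts of the class total), and 72 UMIs in 9 stressed cells. Of those 72, 62 lay in 2 cells, so the stressed level of 1665 CPM describes these cells and not the class. Neural-like cells gave 8 UMIs in 4 of 211 control cells (17.9 CPM, 7.74 to 35.3) and 3 UMIs in 3 of 155 stressed cells (4.78 CPM, 0.985 to 14.0). Vascular-like cells, 8 and 9 in number, gave 0 Lepr UMIs in both libraries, which by the same 3 counts allows up to 103 and 46.3 CPM. In order of level, the stressed microglia-like and border-associated sums did not differ beyond their counting intervals, nor did the control ones. The microglia-like sums stood above the neural-like ones in each library. The border-associated sums did too, but each rested on 1 cell, so they do not rank that class. The shares of cells with Lepr overlapped between border-associated and neural-like cells. They were 4.94% (1.36 to 12.2%) and 1.9% (0.519 to 4.78%) in the control library. In the stressed library they were 6.67% (0.818 to 22.1%) and 1.935% (0.401 to 5.55%). Cells placed in no class had 225 and 186 CPM of Lepr, with 21 of the 30 control UMIs and 14 of the 25 stressed UMIs in 1 cell each.

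Leprot was found in microglia-like, border-associated macrophage-like, monocyte or granulocyte-like, neural-like and vascular-like cells of both libraries. It stood at 64.5 and 82.9 CPM in border-associated macrophage-like cells and at 22.4 CPM (10.7 to 41.2) and 30.2 CPM (18.2 to 47.2) in neural-like cells of the control and stressed libraries. The microglia-like intervals lay above the neural-like ones in both libraries. Among microglia-like, border-associated and vascular-like cells the Leprot intervals overlapped in each library, the vascular-like values resting on 3 UMIs per library. In monocyte or granulocyte-like cells Leprot rested on 1 control UMI, which is under the limit of 3 counts, and on 4 stressed UMIs.

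**Figure D1:**
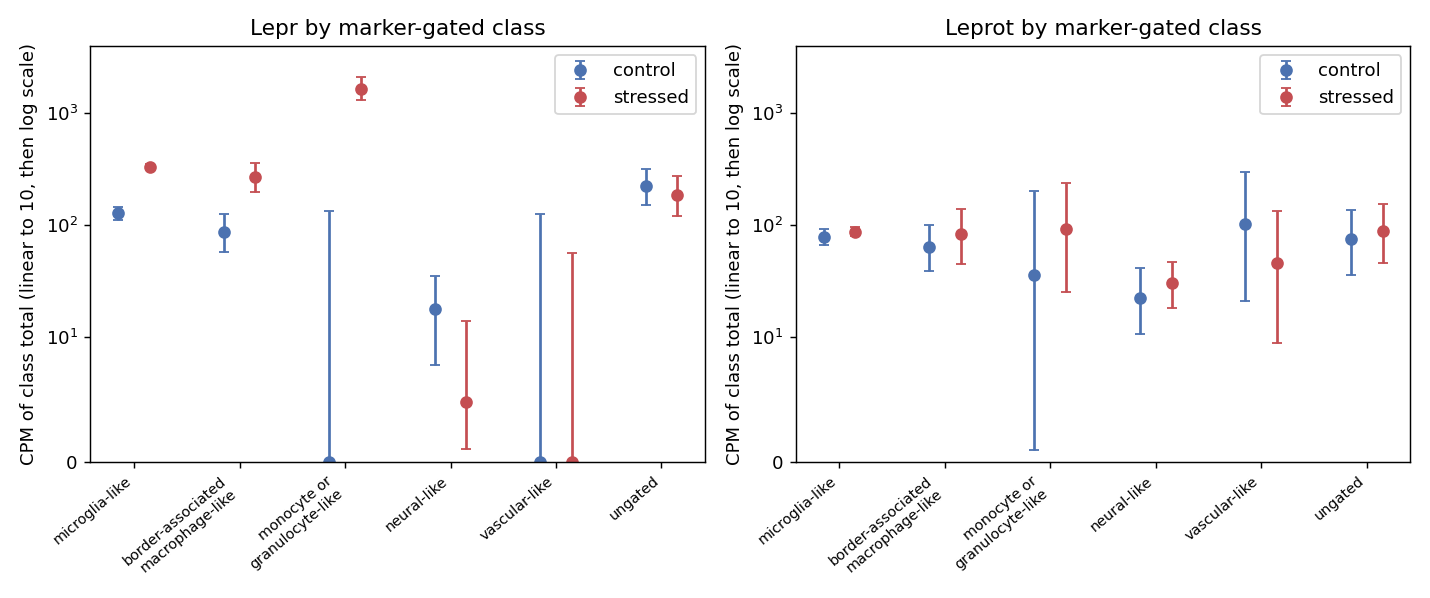
Level of Lepr (left) and Leprot (right) in CPM of the class total, by marker-gated class, for the control (blue) and stressed (red) library; bars are exact Poisson intervals of counting error and the axis is linear to 10 and logarithmic above. Microglia-like Lepr lies at 128 and 333 CPM, and Leprot at 79.3 and 87.9 CPM.

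Lepr was undetected in most microglia-like cells and abundant in a few. Of 692 control cells, 646 had no Lepr UMI, 27 had 1 UMI, 11 had 2 to 9 and 8 had 10 or more, with a maximum of 26. In the stressed library 1010 of 1165 cells had none, 66 had 1, 46 had 2 to 9 and 43 had 10 or more, with a maximum of 91. Cells with at least 10 Lepr UMIs are called Lepr-rich here. They made up 1.16% of the control cells (exact binomial interval 0.500 to 2.27%) and 3.69% of the stressed cells (2.68 to 4.94%), and they held 63.3% and 87.0% of all Lepr UMIs of the class. A fixed minimum in UMIs is reached more easily in deeper cells. Ranked by Lepr, the first 6 control cells and the first 15 stressed cells held at least 50% of the Lepr UMIs, whereas Leprot took 50 and 129 cells.

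The 8 control Lepr-rich cells had 10 to 26 Lepr UMIs with a median of 19.5, in cells of 1197 to 4530 UMIs in total. Per 10000 UMIs of the cell, they had between 31.6 and 174, with a median of 82.2. The 43 stressed Lepr-rich cells had 10 to 91 Lepr UMIs with a median of 31, or 7.79 to 258 per 10000 with a median of 55.6. Scaled to the depth of the cell, the control cells were therefore within the range of the stressed ones. The highest values thus made Lepr more than 1% of all molecules counted in a cell in both libraries.

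Leprot showed no such cells. Its maximum was 3 UMIs in a control cell and 5 in a stressed cell, and no cell had 10 or more. The variance over the mean of UMIs per cell, which is 1 for counts that differ by sampling alone at equal depth, was 13.9 and 40.8 for Lepr and 1.13 and 1.16 for Leprot. With every cell thinned to 1100 UMIs it was 8.60 and 12.3 for Lepr and 0.999 and 1.05 for Leprot. If Lepr UMIs had fallen on cells in proportion to depth, 186 control and 836 stressed cells would have had at least 1, whereas 46 and 155 did. For Leprot the numbers were 124 and 369 by proportion and 121 and 365 in the data.

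**Figure D2:**
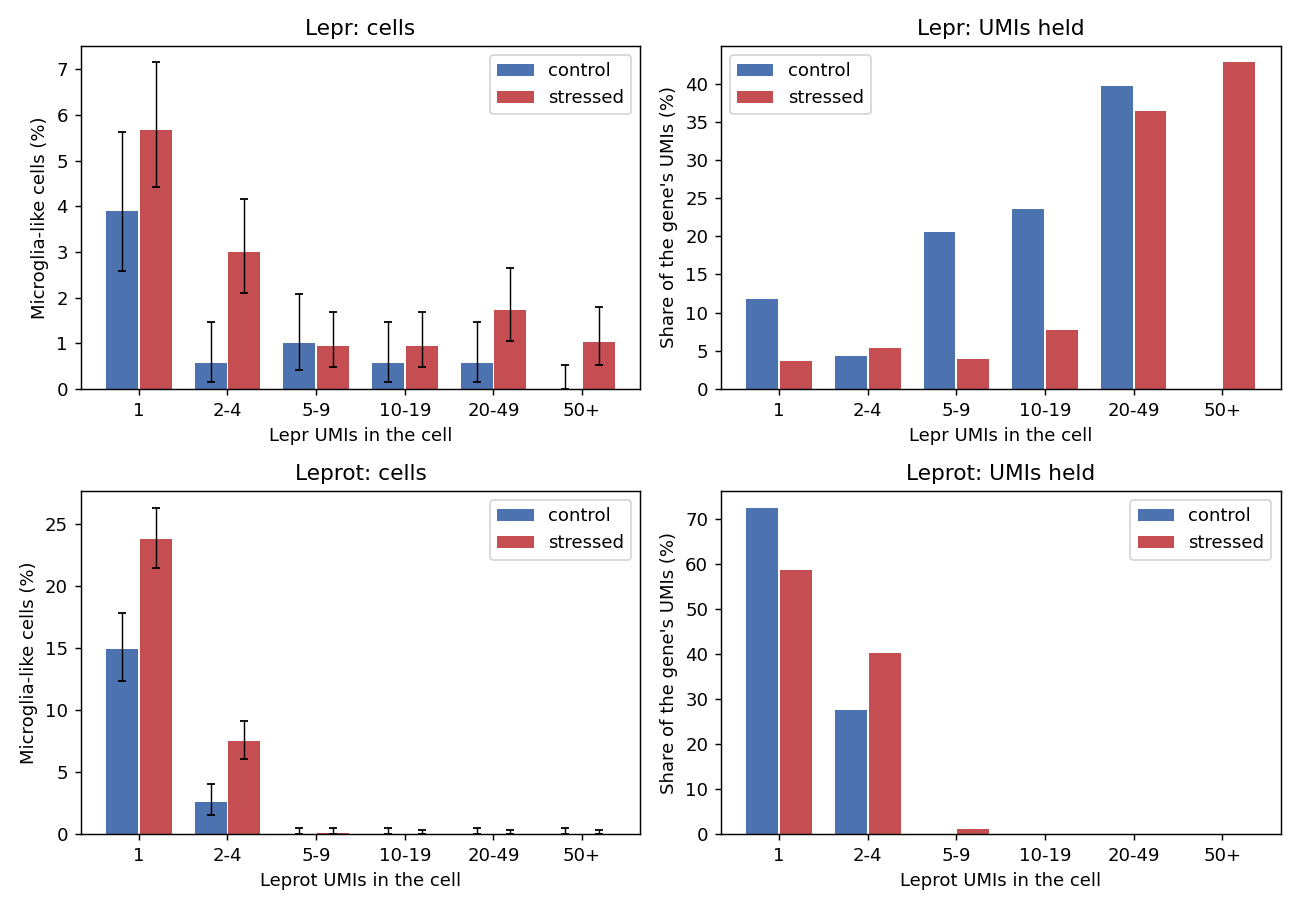
Microglia-like cells by the number of Lepr (top) or Leprot (bottom) UMIs they held, as a share of cells with exact binomial intervals (left) and as the share of the gene's UMIs held by those cells (right); cells without a UMI are not drawn. In Lepr, cells with 10 or more UMIs held 63.3% (control) and 87.0% (stressed) of the UMIs, while Leprot had no such cell.

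Among all genes of at least 50 CPM, Lepr was one of the most concentrated. The 1% of microglia-like cells with most Lepr UMIs (7 and 12 cells) held 59.0% of them in the control library and 42.8% of them in the other. That was the 8th highest share of 2575 genes and the 11th highest of 2432 genes, for which the medians were 10.6% and 8.54%. The corresponding shares for Leprot were 12.0% and 8.69%, at ranks 944 and 1164. Lepr thus stood at the far end of the genes in both libraries and Leprot near the middle.

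**Figure D3:**
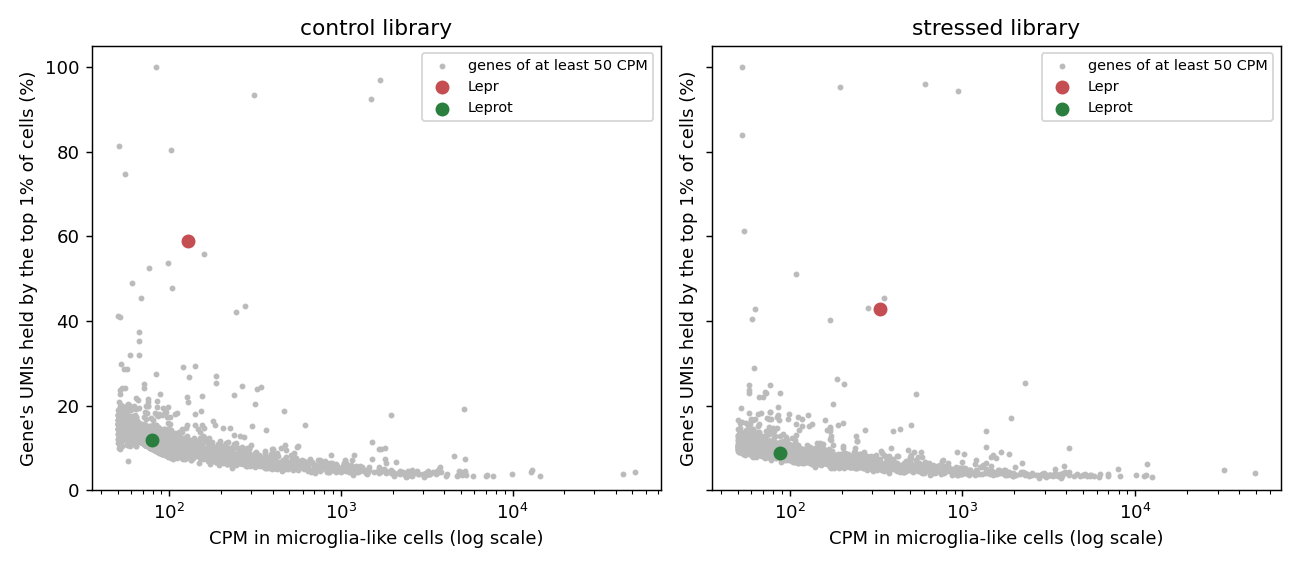
Share of a gene's UMIs held by the 1% of microglia-like cells with most of them, against the level of the gene in CPM on a log axis, for each gene of at least 50 CPM (grey) in the control (left) and stressed (right) library. Lepr (red) lies at 59.0% and 42.8%, far above the medians of 10.6% and 8.54%, and Leprot (green) at 12.0% and 8.69%.

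Because the stressed cells were deeper, with a median of 4017 UMIs against 2156.5, shares of cells with a UMI were also compared at 1100 UMIs per cell. This kept 629 of 692 control and 1160 of 1165 stressed microglia-like cells. At that depth 23 of 629 control cells had Lepr, a share of 3.66% (2.33 to 5.44%). Of the stressed cells 83 of 1160 had it, or 7.16% (5.74 to 8.79%). These intervals are over the cells of 1 library per condition, for a gene chosen by this difference, and they are no test of it. Without thinning the shares were 6.65% and 13.3%. Within the cells that still had Lepr after thinning, the mean was 4.61 control and 5.02 stressed UMIs. Neural-like cells, in which Lepr was scarce, were taken as the background for Lepr. Whether their Lepr UMIs were free RNA or their own was not tested. Their thinned shares were 1.19% (2 of 168, 0.145 to 4.23%) and 0.704% (1 of 142, 0.0178 to 3.86%), with unthinned medians of 1538 and 3043 UMIs per cell. The stressed microglia-like interval lay above the background interval, while the control one overlapped it. No neural-like cell had more than 3 Lepr UMIs, whereas 8 control microglia-like cells had 10 or more. A single Lepr UMI in a control cell cannot be told apart from free RNA.

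At 1100 UMIs 49 of 629 control cells had Leprot (7.79%, 5.82 to 10.2%), as had 136 of 1160 stressed cells (11.7%, 9.93 to 13.7%). Without thinning the shares with Leprot were 17.5% and 31.3%. Its thinned shares in neural-like cells were 1.19% and 2.82%. The thinned Leprot shares had intervals that overlapped between the libraries.

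Bands of equal depth, set after the values were seen, gave shares of cells with Lepr whose intervals overlapped between the libraries, the control share being the higher in the lowest band. From 2000 to under 4000 UMIs, 281 control cells had a share with Lepr of 5.69% (3.29 to 9.08%) and 457 stressed cells one of 9.63% (7.08 to 12.7%). From 4000 to under 8000 UMIs the shares were 12.5% of 96 cells and 14.6% of 460 cells. Below 2000 UMIs they were 5.77% of 312 cells (3.45 to 8.96%) and 3.25% of 123 cells (0.893 to 8.12%). Lepr-rich cells numbered 3 of 281 and 10 of 457 in the first of these bands and 1 of 96 and 19 of 460 in the second, where Lepr stood at 110 and 345 CPM and at 86.1 and 336 CPM. Below 2000 UMIs, 4 of 312 and 2 of 123 cells were Lepr-rich, and the levels were 217 and 278 CPM. From 8000 UMIs, 40 of 125 stressed cells had Lepr (32.0%, 23.9 to 40.9%) and 12 were Lepr-rich. The control library had only 3 cells there, 0 with Lepr (0 to 70.8%), so that band allows no comparison.

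Joint detection of the 2 genes was set against the product of their shares, which is the number of cells expected to hold both if the genes were found independently. In the control library 12 of 692 microglia-like cells held both, against a product of 8.04, while 34 held Lepr alone, 109 Leprot alone and 537 neither. In the stressed library 61 of 1165 held both, against a product of 48.6, with 94, 304 and 706 in the other 3 groups. Deeper cells are likelier to show either gene, which raises the joint count over the product. At 1100 UMIs per cell, 3 control cells held both against 1.79 by the product, and 10 stressed cells against 9.73.

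The stressed value differed between thinning depths, each of which was 1 random draw over its own cells (1160 at 1100 UMIs and 1042 at 2000 UMIs). Depth was not told apart from the draw. At 2000 UMIs, 3 control cells held both against 2.32, and 27 stressed cells against 16.7. Leprot was there found in 25.0% of stressed cells with Lepr (17.2 to 34.3%) and 14.3% of those without (12.2 to 16.8%), whereas at 1100 UMIs the shares were 12.0% (5.93 to 21%) and 11.7% (9.84 to 13.8%). Within the depth bands the stressed library had 10 cells with both against 10.7 from 2000 to under 4000 UMIs, 28 against 23.9 from 4000 to under 8000 UMIs and 23 against 21.4 from 8000 UMIs. The control library had 2 against 2.02 below 2000 UMIs, 5 against 2.85 in the next band and 5 against 4.12 in the one above. The excess over the product was thus present at 2000 UMIs in the stressed library and small at 1100 UMIs and within its depth bands. Lepr-rich cells had Leprot in 1 of 8 control and 17 of 43 stressed cells. In border-associated macrophage-like cells 2 of 81 control and 0 of 30 stressed cells held both genes.

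The Lepr-rich microglia-like cells were examined for other cell types that could carry Lepr RNA. All 8 control cells had 0 UMIs of every marker in the neural, vascular, meningeal, choroid plexus, erythroid and monocyte or granulocyte lists (16, 14, 10, 10, 10 and 14 genes). In control cells without Lepr the neural list stood at 130 CPM, the vascular at 44.3 CPM and the others lower. A single UMI in the 8 cells is 51.0 CPM, and the same lists had placed them in their class. These counts of 0 therefore cannot decide whether another cell type carried the Lepr RNA. The microglial list stood at 8823 CPM in the 8 control Lepr-rich cells and at 7917 CPM in control cells without Lepr. Of the 43 stressed cells, none had a choroid plexus or erythroid marker. In those 43 cells, 8 of 16 neural, 5 of 14 vascular and 2 of 10 meningeal markers had a UMI, at 66.3, 51.6 and 14.7 CPM in all, against 151, 49.2 and 7.02 CPM in stressed cells without Lepr. Per cell the summed neural markers ranged from 0 to 9.71 per 10000 UMIs in the stressed Lepr-rich cells and from 0 to 114 in those without Lepr. The microglial list stood at 7050 CPM in the stressed Lepr-rich cells and 8246 CPM in those without Lepr. Summed monocyte or granulocyte markers stood higher in the stressed Lepr-rich cells than in those without Lepr, at 177 and 11.6 CPM, with 5 of 14 genes found. Their median per cell was 0 per 10000 UMIs in both sets, so this sum does not describe most Lepr-rich cells. Border-associated macrophage markers stood at 918 and 1556 CPM in the control and 1319 and 1431 CPM in the stressed Lepr-rich cells and those without Lepr. The lymphoid list stood at 459 and 253 CPM in the control and 280 and 284 CPM in the stressed ones. At least 3 markers of the border-associated list were found in 0 of 8 and 14 of 43 Lepr-rich cells, and in 53 of 646 and 156 of 1010 cells without Lepr. For the monocyte or granulocyte, neural and vascular lists this held in 1 of the 43 stressed cells each. Leaving out cells with 3 or more markers of a non-myeloid class and the deepest 3.5% of each library, as likely doublets, kept 656 control and 1094 stressed microglia-like cells, over which the Lepr log2 ratio was 1.26.

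Transcripts of the G2 and M cell cycle phases were found in a larger share of cells with Lepr than without, in both libraries. The intervals of the 8 control Lepr-rich cells and of stressed cells with at least 20 Lepr UMIs overlapped those of cells without Lepr. At least 2 of 10 G2/M genes (such as Mki67, Top2a and Cdk1) were found in 4 of 8 control Lepr-rich cells (50.0%, 15.7 to 84.3%) and in 120 of 646 control cells without Lepr (18.6%, 15.6 to 21.8%). In the stressed library the numbers were 22 of 43 (51.2%, 35.5 to 66.7%) and 194 of 1010 (19.2%, 16.8 to 21.8%). Cells with 1 Lepr UMI had shares of 44.4% (control, 12 of 27) and 42.4% (stressed, 28 of 66), and cells with 2 to 9 UMIs had 45.5% (5 of 11) and 65.2% (30 of 46). The share was thus not particular to Lepr-rich cells. Cells of 1 library are not replicates, so the intervals show counting error alone. Median depth was 1878.5 UMIs in the control Lepr-rich cells and 2133 UMIs in control cells without Lepr, but 5115 and 3823.5 UMIs in the stressed ones. With the cells thinned to 1100 UMIs the control shares were 37.5% of 8 (8.52 to 75.5%) and 12.5% of 593 (9.93 to 15.4%). In the stressed library they were 31.0% of 42 (17.6 to 47.1%) and 10.5% of 1007 (8.70 to 12.6%). Of the 32 stressed cells with at least 20 Lepr UMIs, 12 had 2 or more G2/M genes (37.5%, 21.1 to 56.3%), an interval that overlaps that of cells without Lepr. Thinned to 1100 UMIs, their share was 18.8% (7.21 to 36.4%).

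Stated by single genes, 10 of the 10 G2/M genes had a higher CPM in the stressed Lepr-rich cells than in stressed cells without Lepr, and 9 of 10 in the control ones. Of all genes of at least 10 CPM in the class, 51.2% of 7125 were higher in the stressed Lepr-rich cells and 39.4% of 7401 in the control ones, where 3402 genes had no UMI in the 8 cells. The median log2 ratio of the G2/M genes was 1.23 in the stressed library, against 0.01 over all genes. Among stressed cells, Lepr-rich and without Lepr, Tpx2, a spindle assembly factor, stood at 95.8 and 26.7 CPM, Cenpf, a kinetochore protein gene, at 99.5 and 35.8 CPM, and Mki67, a marker of dividing cells, at 162 and 59.1 CPM. The control values rest on 0 to 10 UMIs per gene. Of the 10 S phase genes, 9 stood higher in the stressed Lepr-rich cells and 5 in the control ones, but their median log2 ratio in the stressed library was 0.22, and Mcm2, Mcm3 and Mcm4, of the replicative helicase, stood at 0.10, 0.10 and 0.13. Pcna, the sliding clamp of DNA replication, stood at 111 and 92.0 CPM in the stressed Lepr-rich cells and those without Lepr.

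The same relation was seen from the side of the cell states, which were set after the values were seen. At 1100 UMIs, Lepr was found in 9.63% of 135 control cells with G2/M genes (5.23 to 15.9%) and in 1.33% of 301 cells of no named state (0.363 to 3.37%). In the stressed library the shares were 14.0% of 272 (10.1 to 18.7%) and 4.29% of 513 (2.71 to 6.42%). Before thinning, the G2/M cells had medians of 3199 and 5383 UMIs and the cells of no named state 1716 and 3021 UMIs. Leprot was found in similar shares of both states, at 8.89% and 8.31% in the control and 12.5% and 11.9% in the stressed library.

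Cells with S phase genes and no G2/M state had Lepr in 6.94% of 72 control and 5.21% of 192 stressed cells. Cells with Ccl3 and Ccl4, chemokines of activated microglia, had Lepr in 0 of 84 control cells, for which 3 counts allow a share of up to 3.57%, and in 6.25% of 160 stressed cells (3.04 to 11.2%). Those sums were 2 UMIs (8.27 CPM) in the control and 318 UMIs (394 CPM) in the stressed library, 6 of the stressed cells being Lepr-rich. Spp1-high cells, 38 and 23 in number, had Lepr in 1 of 37 and 3 of 23 thinned cells, at 106 and 1079 CPM, the latter with 3 Lepr-rich cells. In levels, the G2/M cells stood at 217 and 440 CPM, the S phase cells at 231 and 220 CPM and the cells of no named state at 72.2 and 212 CPM in the control and stressed library. Between the libraries, the S phase cells were close in level while the others were higher in the stressed library. The control S phase level rested on 7 cells with Lepr, 1 of them Lepr-rich. The control level of no named state rested on 13 such cells, 2 of them Lepr-rich, and that of Spp1-high cells on 3, with 1 Lepr-rich. A single Lepr-rich cell could therefore decide such a level, and the difference between states was not tested.

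**Figure D4:**
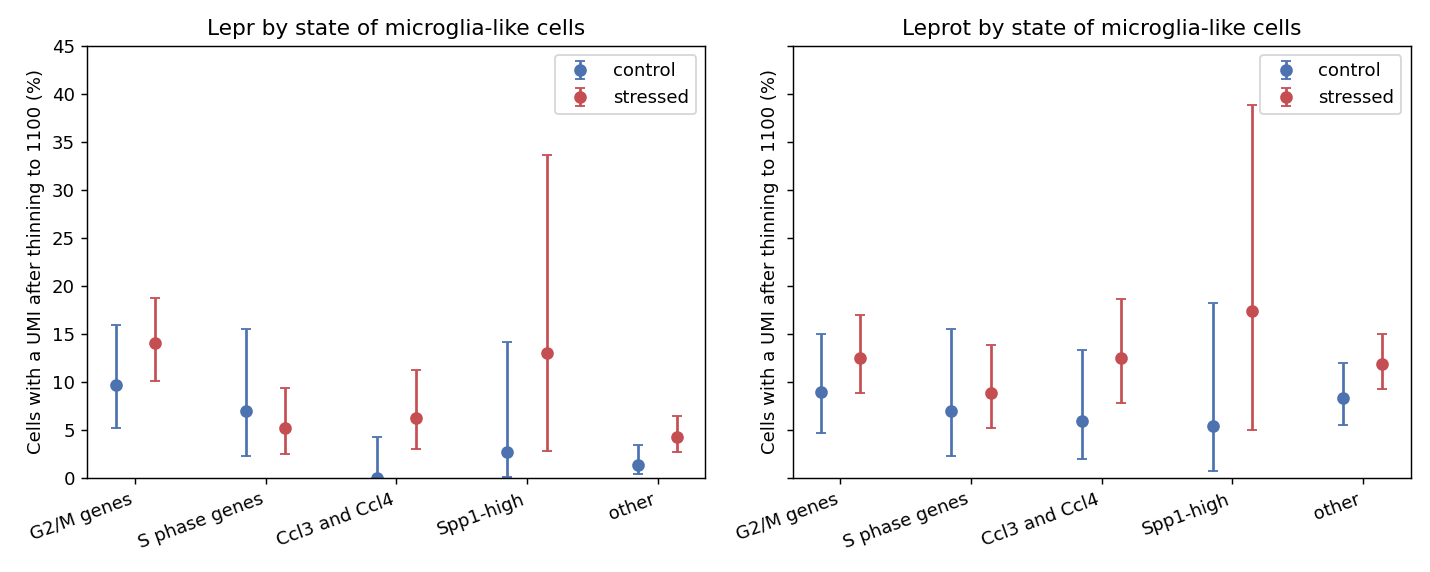
Share of microglia-like cells with a Lepr (left) or Leprot (right) UMI after thinning to 1100 UMIs, by cell state, for the control (blue) and stressed (red) library, with exact binomial intervals. Lepr was found in 9.63% and 14.0% of cells with G2/M genes against 1.33% and 4.29% of cells of no named state, and Leprot in similar shares of both.

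The genes with the highest CPM in control Lepr-rich cells relative to cells without Lepr were led by Ckap5 (log2 ratio 2.61) and Tmpo (2.49), a spindle protein gene and a nuclear envelope gene, from 5 and 7 UMIs. Fam133b, Pclaf, Rcbtb2, Fam91a1, Tlr7, Scaf11, Tubb4b and Mcm7 followed, on 4 to 14 UMIs each. In the stressed library Hmgb2, a chromatin protein gene of dividing cells, led with 704 and 316 CPM (log2 ratio 1.16), followed by the cell cycle gene Cks1b with 310 and 157 CPM (0.98). Gpbp1, Anp32e, Ube2s, Srek1ip1, Lair1, Usp9x, Zc3hav1 and Mtpn followed, with log2 ratios from 0.92 down to 0.72. The 10 leading genes of each library, out of 589 and 971 that reached 100 CPM in the Lepr-rich cells and were found in at least 50% of them, had 0 in common.

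Of 46 other listed genes that were measured, 5 (10.9%) lay past 1.5 times between the libraries, a share near the 10.6% of all genes. The lists cover leptin signalling and feedback, the relative of Leprot, Stat3 response, other cytokine receptors and receptor trafficking. Many of the 46 are thus not particular to the leptin pathway. Lep, the gene of the ligand, had 0 UMIs in microglia-like cells of both. Leprotl1, the relative of Leprot, stood at 103 and 94.2 CPM, a log2 ratio of −0.13 (−0.37 to 0.13). Lists are counted over members of at least 10 CPM in a library, with 1.5 times as the limit, which 3.15% of 7650 such genes passed upward and 7.44% downward. Of 18 signalling genes 12 were measured, and 0 lay past 1.5 times, with a median log2 ratio of −0.27 against −0.08 over all genes. Jak2, the kinase bound to the receptor, stood at 16.2 and 13 CPM (−0.31, −0.96 to 0.37), and Stat3 at 45.8 and 35.6 CPM (−0.36, −0.75 to 0.03). Stat5b (−0.58), the phosphatidylinositol kinase gene Pik3ca (−0.43) and the adaptor Sh2b1 (−0.38) were also among those with the largest ratios. The ratios of these 5 genes were below 0, opposite to Lepr, and each of their intervals held 0.

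Among 9 feedback genes 3 were measured, and Pias3, an inhibitor of Stat3, lay past 1.5 times at 6.14 and 10.2 CPM (0.74, −0.21 to 1.82) from 11 and 55 UMIs. The phosphatases Ptpn1 (0.05) and Ptpn2 (−0.07) did not. Socs3 had 7 and 17 UMIs, or 3.91 and 3.17 CPM, under the minimum, as was Socs2, an inhibitor of cytokine signalling, at 8.93 and 3.17 CPM. Of 12 genes known to respond to Stat3, 8 were measured, of which 1 was higher (Junb, 21.2 and 36.9 CPM, 0.80, 0.29 to 1.34) and 2 lower (Nfkbiz, −0.71, and Pim1, −0.66). Icam1 (−0.36), Egr1 (0.32) and Myc (−0.13) lay within 1.5 times.

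Of 20 other cytokine receptor genes, most of the class I family to which Lepr belongs (Il10ra and Il10rb are class II), 13 were measured, with a median log2 ratio of −0.13, and only Il7r, a receptor chain for interleukin 7, was past 1.5 times (10.6 and 16.0 CPM, 0.59, −0.14 to 1.39). Il6st, the signalling chain of the interleukin 6 family, stood at 92.7 and 62.4 CPM (−0.57, −0.84 to −0.29). Il3ra (−0.58), Crlf2 (−0.46), Lifr (0.46) and Il10rb (0.30) followed. Of 10 genes of receptor trafficking and shedding 9 were measured, and all lay within 1.5 times. The protease genes Adam10 and Adam17 had log2 ratios of −0.31 (−0.47 to −0.15) and −0.17. Those of the endosomal sorting genes Vps4a, Vps4b, Tsg101 and Stam were 0.01, −0.26, −0.03 and −0.14, and Rab7, Rnf41 and Cltc stood at −0.05, −0.15 and −0.10.

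The genes whose levels most resembled the 2 members were sought over 6 sums, of microglia-like, border-associated and neural-like cells in each library, among 4514 genes of at least 50 CPM in a sum, by the correlation of log2(CPM + 1). For Lepr they were Bag1 (Pearson r = 0.992), Tmem243 (0.988), Ebp (0.985), Atp6v1c1 (0.983) and Ddrgk1 (0.978). For Leprot they were Creg1 (0.999), Tifab (0.998), Ifngr2 (0.997), Tmem14c (0.997) and Lyn (0.996). The correlation of Lepr with Leprot was 0.908. The 6 sums share 2 libraries with their depths and 3 classes, and the values describe these sums alone. For Lepr, each border-associated sum rested mostly on 1 cell, and the neural-like sums held 8 and 3 UMIs. The 5 genes were picked as the highest of 4514 over only 6 sums, which by itself favours high correlations. None of the 5 genes most like Lepr differed between the libraries as much as it: Tmem243 stood at 91.0 and 111 CPM in microglia-like cells.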

How the data were processed

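The deposited matrices hold whole-number UMI counts for each gene in each barcode, not normalized. The file headers give software version 3.0.0. Tools and build listed per the submitters' processing notes, with no role stated, were Seurat 2.4, Cell Ranger 3.0.0, STAR and GRCm38.p5 (mm10). The gene pair, lists and tests were chosen with earlier results of these data known.

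Cells had to show 500 genes or more, with mitochondrial UMIs no more than 10%. Each took the class with the highest share of markers detected, with at least 3 markers (Python 3.11.15, numpy 2.4.6, scipy 1.17.1). No doublet caller was run. Counts were summed per class and library and divided by the class total (CPM). Intervals are exact Poisson, exact Clopper-Pearson binomial or exact conditional (ratios), at 95%, for counting error only. A sum of 0 allows up to 3 counts. Cells were thinned in 1 seeded draw. The ratio step was tested on simulated counts for microglia-like sums over 2575 genes. It recovered 100 of 100 genes raised 3 times and 100 of 100 lowered 3 times, and 0 of 2375 unchanged genes passed 2 times. The simulated sums were independent Poisson counts, with no clumping within cells and no difference between litters. They check the arithmetic and do not test the ratio of a clumped gene such as Lepr.

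Genes were named by rule: Lepr and Leprot, list members with the largest ratios, the 5 most alike and the 10 leading in Lepr-rich cells of each library. A result that the rule would name is not reported here. Alternatives were edgeR 4.0.16 TMM and DESeq2 1.42.0 size factors, other filters, gates, depths and cell sets. Cells of every class, and no barcodes found in both libraries, were 2 alternatives chosen after seeing the data. Figures were drawn with matplotlib 3.10.9.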

Additional observations from a re-analysis of the deposited data

Results flagged for a closer look

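Lepr was found in barcodes that the cell filter kept out of every comparison of the report. Control barcodes left out by the cell filter held 9 Lepr UMIs in 2 barcodes, with 8 UMIs in 1 of them, which is above the 3 counts that a sum of 0 allows. The stressed barcodes left out held 0 Lepr UMIs. The control barcodes left out had under 500 genes, and with no cell filter the log2 ratio of Lepr was 1.35.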

How the results depend on the processing

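Lepr stayed higher in the stressed library in all 16 alternatives run, with log2 ratios from 1.08 to 2.33, and in 11 of them it lay within the interval of the reported 1.38. It was 1.98 under a filter of 1000 genes and 5% mitochondrial UMIs, 2.33 in non-cycling cells, 1.86 without the 1% of cells with most Lepr, 1.08 as the mean of per-cell CPM and 1.09 with cells thinned to 1100 UMIs. Leprot stayed between 0.10 and 0.65, and 0.65 was its value in thinned cells. The 11 genes at least 2 times higher became 21 when cells were gated by summed marker UMIs, 20 with totals free of ribosomal, mitochondrial and haemoglobin genes, 29 at 20 CPM, 4 at 100 CPM and 226 with no minimum. The thinned shares of non-cycling cells with Lepr were 1.18% (control) and 5.03% (stressed). Thinned to 2000 UMIs, the stressed share with Lepr was 10.4%, the shares with Leprot 12.9% and 15.45%, and the stressed share with both genes 2.59%. Unthinned shares were 6.65% and 13.3% for Lepr, 17.5% and 31.3% for Leprot and 1.73% and 5.24% for both, against 0.477% and 0.862% at 1100 UMIs. Gated by summed markers, the stressed share with both was 0.407%. The cause of these moves was not tested, apart from depth in the shares, which rise with the UMIs kept. At 1100 UMIs few cells held both genes, which limits joint detection. No paired analysis was possible because each condition had 1 library.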

Other observations

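Genes beside Lepr and Leprot on chromosome 4 were hardly found in microglia-like cells. Dnajc6, upstream of Leprot, had 0 control UMIs and 1 stressed UMI, and B020004J07Rik, downstream of Lepr, had 0 in both libraries.

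Several other genes, named after their values were seen, were also held by few microglia-like cells in both libraries. The 1% of cells with most UMIs held 100% of those of Dqx1 in both libraries, 55.9% and 51.0% of those of Yae1d1 and 53.7% and 42.9% of those of Golga3.

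Hypothalamic neuropeptide genes that leptin regulates in adult mice were present at low counts in the neural-like cells. Npy, a peptide that promotes feeding, had 16 control and 31 stressed UMIs (35.8 and 49.3 CPM), and Pomc, the precursor of peptides that reduce it, had 15 and 10 UMIs. Cartpt had 14 and 2 UMIs, Agrp 0 and 2, and Lep 0 in both. Jak2 stood at 29.1 and 33.4 CPM and Stat3 at 17.9 and 15.9 CPM in these cells. Pomc was also found in microglia-like cells, with 9 control and 39 stressed UMIs (5.02 and 7.26 CPM). Whether any of these UMIs were free RNA was not tested.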
